A study of Mus musculus with 6 samples.

Results

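Alveolar macrophages (AMs) take up dying cells in the airspace, and the 9 genes described here encode proteins of that process. They are Mfge8, Mertk, Axl, Tyro3, Gas6, Pros1, Stab1, Elmo1 and Dock1, 9 of the 24341 genes in the expression table. The genes were taken by symbol for their known roles, but Mfge8 was selected on its difference between genotypes in these same samples. Its fold change and adjusted p are therefore given only as descriptions of the contrast by which it was chosen, and nothing is supported with them.

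Clearance of apoptotic cells begins when phosphatidylserine, a lipid normally kept on the inner side of the plasma membrane, appears on the surface of a dying cell. Mfge8, a secreted glycoprotein, ties this lipid to alpha-v integrins of the phagocyte, whereas Gas6 and Pros1 (protein S) tie it to the receptor kinases known as TAM receptors. Gas6 is a ligand of Tyro3, Axl and Mertk, and Pros1 of Tyro3 and Mertk but not of Axl. Stab1 (stabilin-1) binds the lipid directly. Elmo1 and Dock1 form an exchange factor that activates the GTPase Rac, which drives the actin cup around the corpse. Mertk and Axl are both known in tissue macrophages, and Axl is a recognised feature of AMs.

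RNA was sequenced from AMs washed out of the lungs of female C57BL/6 mice aged 6 to 10 weeks, with no further treatment. There were 3 CD44+/+ and 3 CD44-/- samples, and the CD44-/- mice lack the hyaluronan receptor CD44 in every cell, not in AMs alone. Each sample was a pool of a few mice, per the study's methods only a pair for some pools, so the p-values measure the spread between pools. Levels are given in FPKM, a unit that divides the sequenced fragments of a gene by the length of its transcript and by the size of the library, so that genes can be compared with each other.

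The labels were checked against Cd44 and cell type markers. Cd44 stood at 540, 535 and 527 FPKM in the CD44+/+ samples and at 54.7, 54.5 and 51.4 FPKM in the CD44-/- samples. All 10 AM markers were present, with a summed level of 14855 to 17271 FPKM in CD44+/+ and 14007 to 18099 FPKM in CD44-/- samples, most of it Chil3. None had an adjusted p under 0.05, and 3 of the 10 did not overlap between genotypes, against 11.6% of all genes, namely Krt79 (log2 fold change -0.38, adjusted p = 0.185), Mrc1 (-0.08, 0.748) and Itgax (0.08, 0.809). Lymphocyte markers summed to less than 1 FPKM in each sample. Depth relative to CD44+/+ replicate 1 lay between 0.812 and 1.05, and the absolute depth is unknown because the table holds no counts.

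Mfge8 lies on the minus strand of chromosome 7 (mm10, chr7:79133768-79149060). The 250 bases before its start, chr7:79149061-79149310 in GRCm38.p6 as given by RefSeq, are shown 5′ to 3′ on the strand of the gene because this is the member that differed most. Capitals mark the GC box GGGCGG, a binding motif of Sp family factors, read on either strand.

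Mfge8 promoter: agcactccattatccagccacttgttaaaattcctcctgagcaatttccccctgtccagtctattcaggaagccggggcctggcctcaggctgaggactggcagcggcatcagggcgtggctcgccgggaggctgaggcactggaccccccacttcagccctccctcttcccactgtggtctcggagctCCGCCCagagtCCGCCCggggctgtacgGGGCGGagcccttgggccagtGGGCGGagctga

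The window held 4 matches, all in the part nearest to the gene. A GC box was found in a promoter window of 8 of the 9 genes, Stab1 being the exception, and in 32.7% of the 32851 windows of all genes. The letters TATAAA, also read on both strands, were present for 1 of the 9 genes (Elmo1) and in 12.4% of all windows, and CACGTG for none of the 9 and in 6.02% of all windows. A match of letters is a description and not a binding site.

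Mfge8 was the member with the widest gap between genotypes. It measured 11.1, 10.3 and 10.5 FPKM in the CD44+/+ samples and 15.4, 19.2 and 18.3 FPKM in the CD44-/- samples. Every CD44-/- sample lay above every CD44+/+ sample, and the lowest CD44-/- sample was replicate 1. The CD44+/+ mean was 10.6 ± 0.426 FPKM and the CD44-/- mean 17.6 ± 1.98 FPKM (SD, n = 3 each). The ratio of these means was 1.66. The log2 fold change, CD44-/- over CD44+/+ on the log2(FPKM + 0.1) scale as for all others below, was 0.72 (SE 0.09, 95% interval 0.52 to 0.93). Its adjusted p in limma was 0.0328 over all genes and 0.102 with the replicate number as a block, both given only as descriptions. The call was also lost without CD44+/+ replicate 2 or 3 and without CD44-/- replicate 2 or 3, with adjusted p between 0.112 and 0.269, whereas the log2 fold change stayed between 0.66 and 0.82 with any 1 sample left out.

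**Figure D1:**
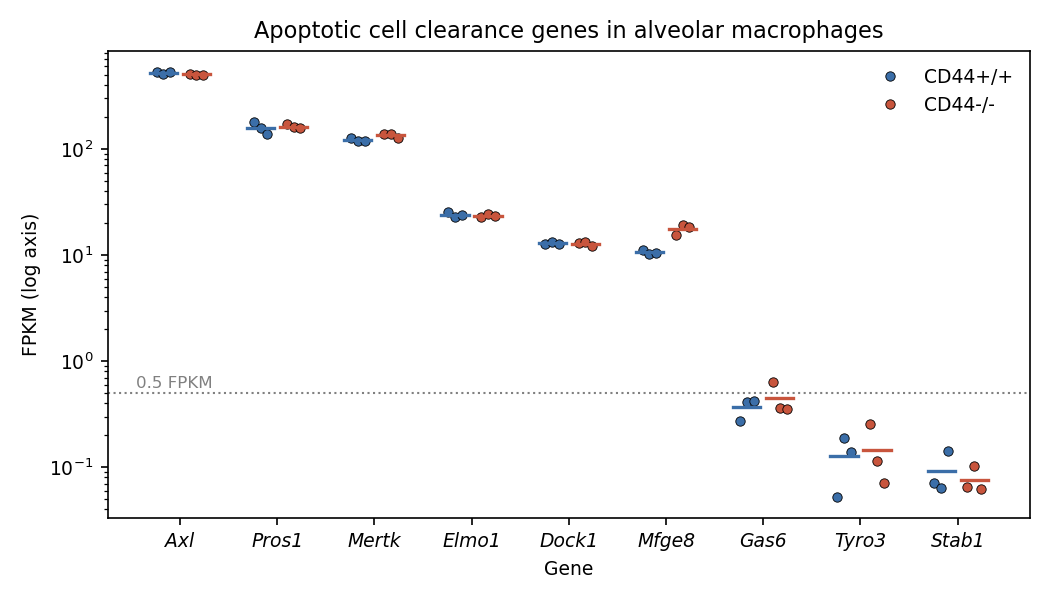
Level of each of the 9 clearance genes in each of the 6 samples, in FPKM on a log axis, with 3 CD44+/+ and 3 CD44-/- points per gene, short lines at the genotype means and a dotted line at the filter of 0.5 FPKM. Axl lies near 500 FPKM in all 6 samples, Mfge8 separates by genotype (10.3 to 11.1 against 15.4 to 19.2 FPKM), and Gas6, Tyro3 and Stab1 lie below 1 FPKM.

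Because bulk RNA was measured, a change in the share of cells that express a gene and a change in RNA per cell cannot be told apart. Fibroblast and endothelial cells, which are known to express Mfge8 in lung, left little trace. Their 6 markers summed to 0.0235 to 0.189 FPKM in CD44+/+ and 0.128 to 0.236 FPKM in CD44-/- samples, and Cdh5 was at 0 in all 6. Of 8 monocyte and interstitial macrophage markers, 3 passed the filter on low values (0.5 FPKM or more, averaged across all 6 samples), and their summed level was 6.95 to 7.78 FPKM in CD44+/+ and 7.20 to 9.26 FPKM in CD44-/- samples. Their part in the Mfge8 difference was not tested.

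The integrin genes on the receiving side of Mfge8 are named here after their values were seen, since they fall outside the naming rule. Itgb5, the beta chain of the alpha-v beta-5 integrin, stood at 107, 91.3 and 91.4 FPKM in CD44+/+ and 98.4, 91.0 and 90.7 FPKM in CD44-/- samples. Itgav, the alpha-v chain, lay at 12.0, 11.4 and 12.3 FPKM and at 11.7, 11.7 and 11.6 FPKM. Both sets overlapped between genotypes. Itgb3, the beta chain of the alpha-v beta-3 integrin, was below the filter at 0.0757 and 0.0467 FPKM as genotype means. Expressed as a ratio to Itgb5, Mfge8 was at 0.104 to 0.114 in CD44+/+ and at 0.157 to 0.211 in CD44-/- samples.

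Among the ligands of the TAM receptors, Pros1 was abundant and Gas6 was barely present. Pros1, a vitamin K-dependent protein that also serves as an anticoagulant cofactor in plasma, measured 179, 157 and 139 FPKM in CD44+/+ and 171, 160 and 157 FPKM in CD44-/- samples. The CD44-/- values lay inside the CD44+/+ range, and the log2 fold change was 0.05 (SE 0.09, 95% interval -0.15 to 0.24, adjusted p = 0.971). Without CD44+/+ replicate 3, its lowest sample, the sign turned and the log2 fold change was -0.044. Gas6, the other vitamin K-dependent ligand, was at 0.273, 0.409 and 0.417 FPKM in CD44+/+ and at 0.637, 0.359 and 0.355 FPKM in CD44-/- samples. These ranges overlapped, with CD44-/- replicate 1 the highest of the 6. Pros1 exceeded Gas6 by 268 to 656 times in every sample.

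Of the TAM receptors, Axl was the most abundant, Mertk stood about 4 times lower, and Tyro3 was close to 0. Axl measured 532, 513 and 532 FPKM in CD44+/+ and 510, 504 and 498 FPKM in CD44-/- samples. All CD44-/- values lay below all CD44+/+ values, but the gap was narrow, with means of 526 ± 11.2 and 504 ± 5.94 FPKM (SD, n = 3 each). The log2 fold change was -0.06 (SE 0.04, 95% interval -0.16 to 0.04, adjusted p = 0.867), so the interval included no difference and a fall to 0.894 of the CD44+/+ level.

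Mertk measured 128, 120 and 119 FPKM in CD44+/+ and 138, 140 and 126 FPKM in CD44-/- samples. CD44-/- replicate 3 lay below CD44+/+ replicate 1, so the genotypes overlapped. The log2 fold change was 0.14 (SE 0.06, 95% interval 0.01 to 0.27), and its adjusted p was 0.624 in limma, with a range of 0.314 to 1 over the alternative settings. Mertk therefore did not pass the threshold. It lies on chromosome 2 (chr2:128698997-128802188), 25.9 Mb from Cd44, the gene targeted in these mice.

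The abundant pair of receptors was also set against each other within each sample. The ratio of Axl to Mertk was 4.16, 4.27 and 4.47 in CD44+/+ and 3.70, 3.60 and 3.95 in CD44-/- samples. The ratio was lower in each CD44-/- sample than in any CD44+/+ sample. This ratio was formed after the values were seen and was not tested. Tyro3, the third receptor of the family, was listed at 0.0528, 0.187 and 0.138 FPKM in CD44+/+ and at 0.254, 0.114 and 0.0703 FPKM in CD44-/- samples. Its values overlapped and spread over several-fold within each genotype.

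Stab1, a scavenger receptor typical of sinusoidal endothelium and some tissue macrophages, had the lowest mean of the 9 genes in both genotypes. It stood at 0.0704, 0.0632 and 0.141 FPKM in CD44+/+ and at 0.0649, 0.103 and 0.0617 FPKM in CD44-/- samples, which overlapped. In GENCODE vM21 its 3′ end overlaps Nt5dc2 on the opposite strand (mean 1.86 FPKM). Whether strand was used in counting is not given in the sources used here, so reads of the overlap could belong to either gene.

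The engulfment pair did not differ detectably between genotypes. Elmo1, the scaffold of the complex, measured 25.4, 23.0 and 23.7 FPKM in CD44+/+ and 23.0, 24.3 and 23.2 FPKM in CD44-/- samples. Its log2 fold change was -0.03 (SE 0.06, 95% interval -0.17 to 0.10, adjusted p = 0.971). Dock1, which carries the exchange activity, measured 12.8, 13.4 and 12.6 FPKM in CD44+/+ and 13.0, 13.3 and 12.2 FPKM in CD44-/- samples. Its log2 fold change was -0.01 (SE 0.06, 95% interval -0.16 to 0.14, adjusted p = 0.989). Both genes overlapped between genotypes, and the intervals, as a ratio to the CD44+/+ level, ran from 0.891 to 1.08 for Elmo1 and from 0.896 to 1.10 for Dock1.

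**Figure D2:**
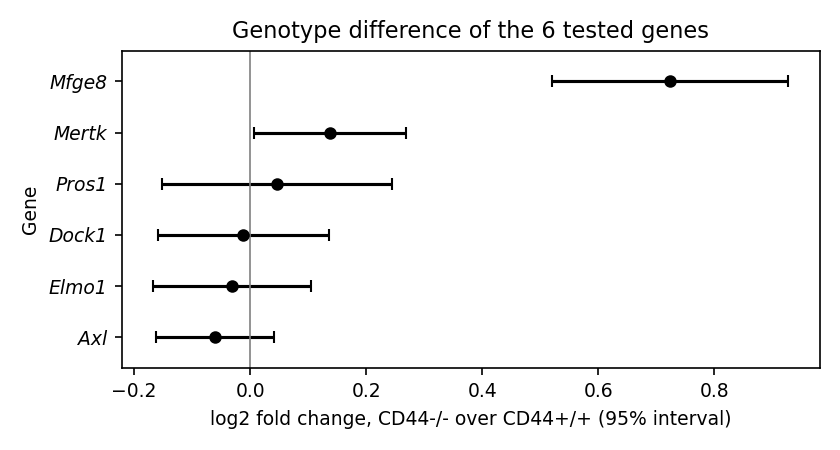
Log2 fold change of the 6 tested clearance genes, CD44-/- over CD44+/+, with 95% intervals from limma (n = 3 per genotype). The Mfge8 interval runs from 0.52 to 0.93, the Mertk interval starts at 0.01, and the intervals of Axl, Pros1, Elmo1 and Dock1 include 0.

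Of the 9 genes, 6 passed the filter on low values. Gas6, Tyro3 and Stab1 did not pass, and in a fit of 16227 genes without that filter their adjusted p were 0.910, 0.975 and 0.940. Of the 6 tested, 1 (Mfge8) had an adjusted p under 0.05, against 0.111% of the 10800 genes tested. An unadjusted p under 0.05 was found for 2 of the 6 (Mfge8 and Mertk), against 7.69% of all genes. The genotypes did not overlap for 2 of the 6 (Mfge8 upward, Axl downward), against 11.6% of all genes. Since Mfge8 was chosen on this contrast, nothing is read from these counts. The median log2 fold change was 0.02 over the 6 genes and 0.01 over all genes tested.

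By level, the CD44+/+ samples ran in the order Axl, Pros1, Mertk, Elmo1, Dock1, Mfge8, Gas6, Tyro3 and Stab1. Neighbours in this order did not overlap in range, except Tyro3 and Stab1. In the CD44-/- samples the order was kept apart from Mfge8, which stood above Dock1. The ratio of Mfge8 to Dock1 was 0.866, 0.766 and 0.831 in CD44+/+ samples and 1.19, 1.45 and 1.50 in CD44-/- samples. Relative to Pros1, Mfge8 was at 0.0619 to 0.0753 in CD44+/+ and at 0.0902 to 0.120 in CD44-/- samples. Among all genes in the table, Axl lay above 99.5%, Pros1 above 98.0%, Mertk above 97.5%, Elmo1 above 86.3%, Mfge8 above 79.6% and Dock1 above 78.4% in mean level.

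Another 91 genes of apoptotic cell clearance were examined by role, and 77 of them passed the filter. None had an adjusted p under 0.05 in limma, and none did under any of the 15 alternative settings. An unadjusted p under 0.05 was found for 6 of the 77 (7.79%, against 7.69% of all genes), 4 of them higher and 2 lower in CD44-/- AMs. The genotypes did not overlap for 11 (14.3%, against 11.6% of all genes). Among these, Thbs1 and Elmo3 passed the filter only through the genotype in which each was higher. Log2 fold changes ran from -0.39 for Elmo3 to 1.19 for Socs1, with a median of -0.01, and 67 of the 77 lay within 0.2 of 0.

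Among the other bridging molecules, 6 of 7 were tested and 3 lay higher in CD44-/- AMs without overlap (50.0%, against 6.75% of all genes higher without overlap), each at a low level. C1qa, a chain of the complement component C1q that coats apoptotic cells, measured 2.08, 1.09 and 1.74 FPKM in CD44+/+ and 3.26, 3.06 and 2.78 FPKM in CD44-/- samples. All CD44-/- values were above all CD44+/+ values, with a log2 fold change of 0.89 (SE 0.21, adjusted p = 0.294). C1qc, a second chain, measured 1.79, 0.813 and 1.36 FPKM in CD44+/+ and 1.87, 2.60 and 2.56 FPKM in CD44-/- samples, with a log2 fold change of 0.83 (SE 0.26, adjusted p = 0.471). The remaining chain, C1qb, overlapped between genotypes at a log2 fold change of 0.43. The third gene apart was Thbs1 (thrombospondin 1), at 0.232, 0.654 and 0.546 FPKM in CD44+/+ and 0.895, 0.663 and 0.714 FPKM in CD44-/- samples, with an adjusted p of 0.747. Its CD44+/+ mean (0.477 FPKM) was under the filter of 0.5 FPKM, which it passed through its CD44-/- mean (0.757 FPKM). C1qa and C1qc encode chains of the same complex. Nothing is therefore read from the share of 50.0%. The most abundant genes of the list, Calr (717 and 704 FPKM as genotype means) and Anxa1 (474 and 469 FPKM), had log2 fold changes of -0.03 and -0.01.

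C1q genes are typical of interstitial macrophages as well. Among the markers of those cells, Cd163, Folr2 and Lyve1 were near 0 in all 6 samples. The part of such cells in the C1q values was not tested.

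Of 19 further receptors, 12 were tested and 1 did not overlap (8.33%, against 11.6% of all genes). That was Ager, which encodes the receptor RAGE and is known above all from alveolar epithelium. It measured 0.937, 0.952 and 1.16 FPKM in CD44+/+ and 2.50, 1.39 and 1.49 FPKM in CD44-/- samples, with a log2 fold change of 0.72 (SE 0.23, adjusted p = 0.476). The 6 markers of alveolar type 2 cells summed to 35.9 to 47.0 FPKM in CD44+/+ and 43.8 to 111 FPKM in CD44-/- samples, with Sftpc highest in CD44-/- replicate 3 (74.2 FPKM). Of the 4 that were tested, 1 did not overlap, against 11.6% of all genes. That was Sftpb, at 2.13, 1.26 and 1.48 FPKM in CD44+/+ and 3.80, 2.32 and 6.53 FPKM in CD44-/- samples (log2 fold change 1.24, adjusted p = 0.369). Sftpc and Sftpa1 overlapped at log2 fold changes of 1.44 and 0.82. Abca3 also overlapped, at 27.0, 26.4 and 27.8 FPKM in CD44+/+ and 27.9, 27.4 and 23.8 FPKM in CD44-/- samples (log2 fold change -0.04). The part of alveolar type 2 cells in the Ager values was not tested. The most abundant receptors of the list were Lrp1, at 202 and 205 FPKM as genotype means, and the scavenger receptor Cd36, at 165 and 141 FPKM, with a log2 fold change of -0.23 and an adjusted p of 0.694.

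Downstream of the receptors, levels were close between genotypes. For signalling to Rac, 16 of 19 genes were tested and 3 (18.8%, against 4.88% of all genes) lay lower in CD44-/- AMs without overlap, with none at an unadjusted p under 0.05 in limma and a median log2 fold change of -0.04. The 3 were Elmo3, Dock2 and Abi1, at log2 fold changes of -0.39, -0.05 and -0.09. Elmo3 averaged 0.656 FPKM in CD44+/+ and 0.476 FPKM in CD44-/- samples, so it passed the filter of 0.5 FPKM only through its CD44+/+ values. Nothing is therefore read from the share of 18.8%. The GTPases Cdc42 and Rhoa, the most abundant of the list, stood at 531 and 513 FPKM and at 344 and 337 FPKM as genotype means. All 17 phagosome maturation genes were tested, and Cybb was the 1 apart (5.88%, against 11.6% of all genes). Cybb, the catalytic subunit of the phagocyte NADPH oxidase, measured 585, 638 and 648 FPKM in CD44+/+ and 580, 537 and 540 FPKM in CD44-/- samples. The ranges were apart by a few FPKM, and the log2 fold change was -0.17 (SE 0.06, adjusted p = 0.489). Its membrane partner Cyba stood at 916 and 911 FPKM and the lysosomal membrane protein Lamp1 at 660 and 697 FPKM as genotype means, both overlapping.

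Socs1, a feedback inhibitor of cytokine signalling that TAM receptors are known to induce, was the single gene apart among 9 genes of vitamin K carboxylation, receptor shedding and TAM feedback (11.1%, against 11.6% of all genes). It measured 0.877, 0.580 and 0.229 FPKM in CD44+/+ and 1.34, 1.66 and 0.928 FPKM in CD44-/- samples. The values did not overlap but came close (0.877 and 0.928 FPKM), and the log2 fold change was 1.19 (SE 0.40, adjusted p = 0.486). Adam17 and Adam10, proteases that can shed TAM receptors from the cell surface, stood at 67.9 and 67.5 FPKM and at 75.2 and 73.3 FPKM as genotype means.

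No gene among 4 tested find-me signal receptors and 7 tested do-not-eat-me receptors and partners was apart between genotypes, against 11.6% of all genes. With so few genes, nothing is read from this count. C5ar1, the receptor of complement fragment C5a, stood at 122 and 111 FPKM and the nucleotide receptor P2ry6 at 49.4 and 45.8 FPKM as genotype means. Sirpa, the receptor that restrains uptake on binding CD47, stood at 649 and 653 FPKM and Cd47 at 270 and 262 FPKM as genotype means. Of 7 phosphatidylserine flippases and scramblases, all tested, 2 were apart (28.6%, against 11.6% of all genes). Ano6, a calcium-activated scramblase, was at 63.0 and 65.9 FPKM as genotype means, with a log2 fold change of 0.06. Plscr3 was the lower of the 2, at 7.32 and 6.67 FPKM, with a log2 fold change of -0.13 and an adjusted p of 0.841. Plscr1 overlapped at 57.9 and 51.2 FPKM, with a log2 fold change of -0.18 and an adjusted p of 0.524. Tmem30a, the partner subunit of flippases, was at 62.4 FPKM in both genotypes.

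**Figure D3:**
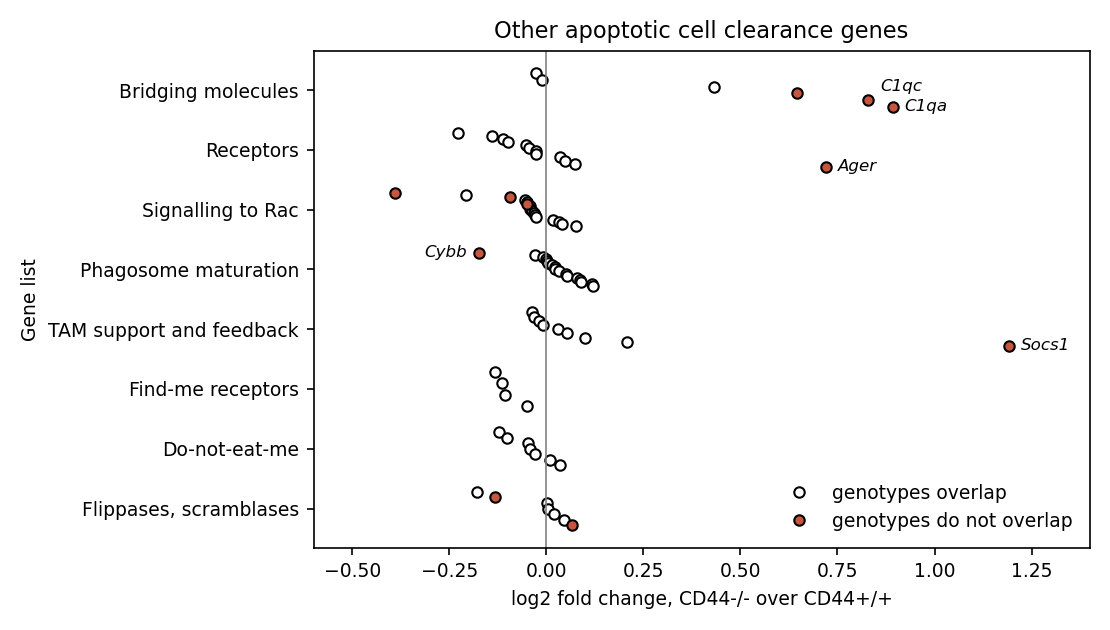
Log2 fold change, CD44-/- over CD44+/+, of the tested clearance genes other than the 9 members, by list, with each point a gene (Lrp1 stands in 2 lists) and filled points those whose genotypes do not overlap. Of 77 genes 67 lie within 0.2 of 0, and Socs1, C1qa, C1qc and Ager lie farthest to the right.

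The genes whose profile over the 6 samples was most like that of Mfge8 were Klrg2, Ccne1, Zranb3, Gpr171 and Rasgrf2. Likeness was the root mean square difference of log2 levels, each centred on its own mean, and ranged from 0.0741 for Klrg2 to 0.111 for Rasgrf2. All 5 were lower in level than Mfge8, the highest being Ccne1 (cyclin E1) at 3.53 ± 0.171 and 5.52 ± 0.809 FPKM (SD, n = 3). In all 5, as in Mfge8, CD44-/- replicate 1 was the lowest of its genotype. Their log2 fold changes were 0.75 for Klrg2, 0.62 for Ccne1, 0.66 for Zranb3, 0.64 for Gpr171 and 0.59 for Rasgrf2. None passed the threshold, with adjusted p from 0.0626 to 0.364 in limma. This ranking is a description over 6 samples that share the genotype contrast by which Mfge8 was chosen.

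**Figure D4:**
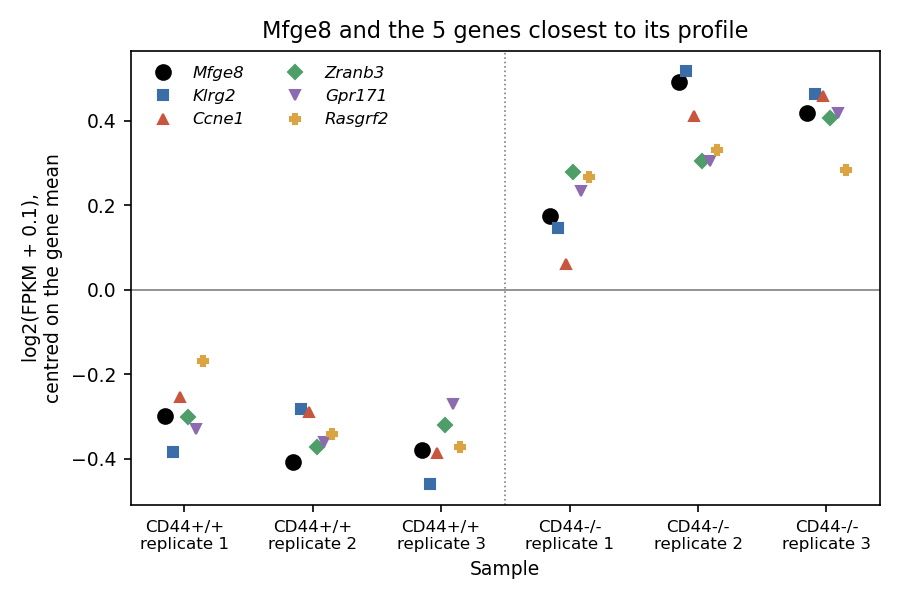
Centred log2 level of Mfge8 and the 5 genes most like it in each of the 6 samples. All 6 genes lie below their own mean in the 3 CD44+/+ samples and above it in the 3 CD44-/- samples.

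The genes next to Mfge8 on chromosome 7 did not share its direction throughout. Within 1 Mb, taken between the lowest coordinates of the genes, lay 30 genes, of which 17 were tested. None had an adjusted p under 0.05 in limma, 4 had an unadjusted p under 0.05 (23.5%, against 7.69% of all genes), and 6 (35.3%, against 11.6% of all genes) did not overlap between genotypes, 2 higher and 4 lower in CD44-/- AMs. Abhd2, 139 kb away, measured 34.3, 33.3 and 31.7 FPKM in CD44+/+ and 41.1, 41.4 and 38.3 FPKM in CD44-/- samples, a log2 fold change of 0.28 (SE 0.06, adjusted p = 0.193). Pex11a, a peroxisome division factor 603 kb away, measured 13.9, 18.0 and 18.2 FPKM in CD44+/+ and 9.74, 9.54 and 11.8 FPKM in CD44-/- samples, a log2 fold change of -0.68 (SE 0.12, adjusted p = 0.142). Plin1, the lipid droplet coat protein perilipin 1, lay beside it at a log2 fold change of -0.90 (SE 0.17, adjusted p = 0.158). Fanci, Kif7 and Idh2 were the others apart, at 0.25, -0.47 and -0.10. Fanci shares its listed position with Polg and Kif7 with Ticrr, so their levels are less certain.

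**Figure D5:**
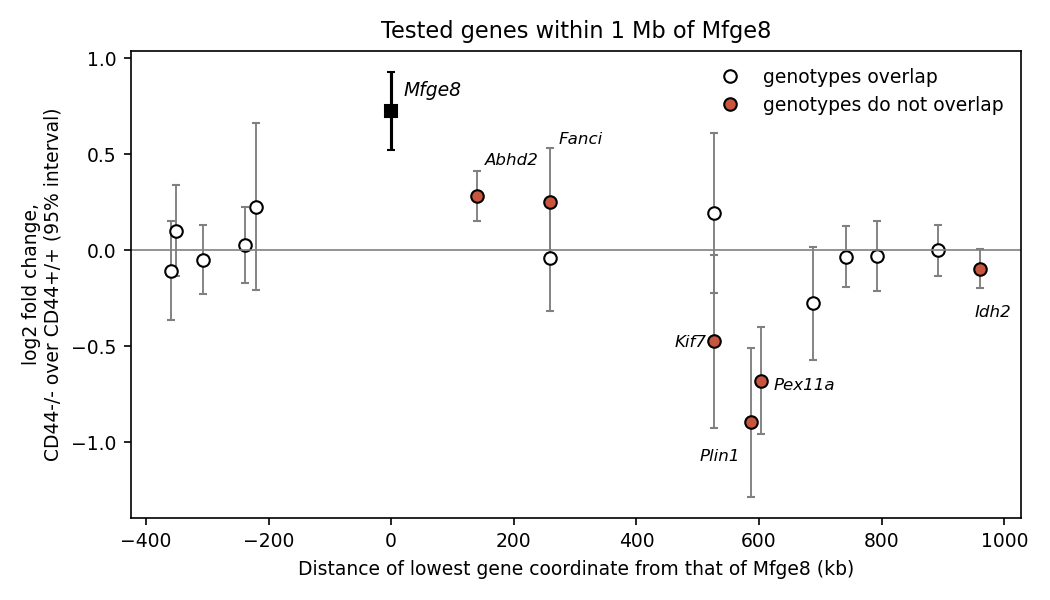
Log2 fold change with 95% interval of Mfge8 and the 17 tested genes within 1 Mb of it, against distance in kb between lowest coordinates, with filled points for genes whose genotypes do not overlap. Abhd2 and Fanci lie above 0, and Kif7, Plin1, Pex11a and Idh2 below.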

How the data were processed

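The authors prepared stranded, paired-end libraries from bronchoalveolar lavage AMs, mapped the reads with STAR (genome build mm10), ran Cufflinks and deposited its FPKM, 1 value per gene and sample. Columns of the authors' own comparison (fold change, p- and q-values) were not used. Rows were taken by gene identifier, not by the second name column. The 9 genes and all lists were chosen with earlier results of these data known.

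The deposited FPKM were transformed as log2(FPKM + 0.1). A gene was kept if it averaged 0.5 FPKM or more across the 6 samples (10800 of 24341), and CD44-/- was compared with CD44+/+ by limma 3.58.1 in R 4.3.3 (eBayes with trend). Tests were two-sided, and p-values were adjusted by the Benjamini-Hochberg method across the 10800 genes. The call threshold was an adjusted p of 0.05. The pseudocount makes the fold changes of low genes too small. Because the values are not counts, no counting interval is given.

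Clearance genes outside the 9 were named where the genotypes did not overlap and the unadjusted p was under 0.05, and the 2 most abundant of a list were named as well. Elmo3, Dock2, Abi1, Thbs1, C1qb, Plscr1 and Plscr3 were named after their values were seen. Genes like Mfge8 were the 5 with the smallest root mean square difference of profile. Marker lists covered AMs, monocytes and interstitial macrophages, dendritic cells, neutrophils, lymphocytes, alveolar type 2 cells, airway secretory cells, fibroblasts and endothelium, and erythroid cells. No marker of any list had an adjusted p under 0.05. Dendritic cell markers summed to 3.06 to 6.45 FPKM in CD44+/+ and 4.28 to 9.78 FPKM in CD44-/- samples, neutrophil markers to 46.8 to 87.5 and 57.2 to 67.6 FPKM, airway secretory markers to 842 to 1401 and 652 to 1134 FPKM, and erythroid markers to 5.62 to 38.3 and 6.26 to 110 FPKM.

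The labels number the samples 1 to 3 in both genotypes without saying what a number shares. Deviations from the genotype means of same-numbered samples correlated at 0.212, 0.132 and 0.211 across genes, so a fit with the replicate number as a block is given where it changes a call. Promoter sequences are from RefSeq (GRCm38.p6), and overlaps between genes from GENCODE vM21.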

Additional observations from a re-analysis of the deposited data

How the results depend on the processing

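Over 15 alternative settings the log2 fold change of Mfge8 kept its sign, with adjusted p from 0.00929 to 0.269. It passed in 7 and did not pass in 8. Its log2 fold change was 0.72 without a filter on low values (adjusted p = 0.147), 0.71 with quantile normalization (0.0578), 0.72 with eBayes without a trend (0.128) and 0.72 with the replicate block (0.102). Under each of these 4 settings 0 of the members passed, against 1 in the reported fit. With 1 sample left out, the log2 fold change was 0.66 to 0.82 and the number of members that passed 0 to 1, with 0 without CD44+/+ replicate 2 or 3 and without CD44-/- replicate 2 or 3. The cause was not tested.

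The number of genes past the threshold was 12 in the reported fit, 7 without a filter and 6 to 36 with 1 sample left out, with 36 without CD44+/+ replicate 1 and 22 without CD44-/- replicate 1. Higher calls made up 66.7% in the reported fit, 42.9% without a filter, 54.5% with quantile normalization, 55.6% with the replicate block and 33.3% to 72.7% with 1 sample left out, the lowest without CD44-/- replicate 2 (33.3%) and 3 (37.5%). The block changed no call of another member or clearance gene. With 1 sample left out, log2 fold changes of 3 members also turned sign. They ran from -0.044 (without CD44+/+ replicate 3) to 0.14 for Pros1, from -0.061 to 0.0091 (without CD44+/+ replicate 1) for Elmo1, and from -0.038 to 0.024 (without CD44-/- replicate 3, and positive without CD44+/+ replicate 2) for Dock1. With 3 pools per genotype and no counts, small differences of the low genes Gas6, Tyro3 and Stab1 could not be resolved.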
